A study of Arabidopsis thaliana with 42 samples.

Results

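Expansins and xyloglucan endotransglucosylase/hydrolases (XTHs) are plant cell wall proteins, and 41 Arabidopsis thaliana loci of both families were followed here across a time course of transcription factor activation. The members were the loci of the alpha-expansin (EXPA), beta-expansin (EXPB) and XTH families that the array's annotation lists, without the root hair expansins EXPA7 and EXPA18 and the touch gene XTH22. They were 17 expansins (15 EXPA and 2 EXPB) and 24 XTHs, which by gene number were 6 of group I (XTH4 to XTH9), 12 of group II (XTH14 to XTH26) and 6 of group III (XTH27 to XTH33). Each had 1 probe set naming its locus alone, among 22810 probe sets on the array, and all 41 gene names were matched by locus in RefSeq (assembly TAIR10.1). EXPA2 and XTH25 had no p-value in the authors' deposited table and were not tested, which left 39 members among 16129 tested probe sets.

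RNA came from whole 7-day-old seedlings of the Columbia ecotype grown in liquid medium with sucrose and hybridised to Affymetrix ATH1 arrays. The transgenic lines carried 35S::GR-REV or 35S::KAN1-GR, that is, the transcription factor REVOLUTA or KANADI1 joined to the hormone-binding domain of the glucocorticoid receptor (GR) under the 35S promoter, a viral promoter active in most plant tissues. The fusion stays in the cytoplasm until dexamethasone (DEX) lets it enter the nucleus. Wild-type seedlings without a transgene were treated alongside.

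On day 1, wild type and GR-REV were collected just before DEX (0 min) and 30, 60 and 120 min after 50 µM DEX was added. On day 2, wild type and KAN1-GR were collected at 0, 30 and 60 min. Each of the 14 groups had 3 replicates, which were separate flasks of seedlings, 42 arrays in all. All samples after 0 min, wild type included, had received DEX, and samples given solvent in place of DEX were not analysed here. The line and transgene insertion behind each genotype are not described in the sources used here, so differences at 0 min are between seedling stocks. Since whole seedlings were measured, fewer cells of a type and less RNA per cell cannot be told apart.

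A plant cell enlarges when its wall, a network of cellulose held in xyloglucan and pectin, yields to turgor. Expansins loosen that network at acid pH without cutting it. XTHs cut xyloglucan chains and mostly join the cut end to another chain, while XTH31 and XTH32 belong to a branch of group III known for hydrolysis, cutting without rejoining. Both families are large, and single members are tied to particular organs, cell types and hormone or touch responses. REVOLUTA promotes upper (adaxial) leaf fate and KANADI1 lower (abaxial) fate.

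The deposited values are on a log2 scale on which each probe set has a median of 0 over the 6 wild-type arrays taken before DEX. The level of a gene relative to another gene is therefore not kept, and every value below is a log2 value or difference on this scale. Group values are means ± SD over 3 arrays, and differences are estimates ± SE from 1 limma fit to all arrays. A difference passed when its Benjamini-Hochberg adjusted p over the 16129 probe sets was under 0.05, and the share of all tested probe sets that passed stands beside each count.

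Several arrays stood apart in genes outside both families. The plastid gene psaA read about -4.21 on the 3 day 1 wild-type arrays at 0 min and near that value on GR-REV replicates 1 and 2 at 0 min, against 1.35 to 6.23 on all other arrays. The mean of 6 root hair markers was -1.47 to -0.37 in day 1 wild type at 0 min and 0.43 to 0.76 in day 2 wild type. The mean of 3 touch genes was 0.93 to 1.19 in GR-REV at 0 min and -0.10 to 0.23 in the wild type beside it. Because 0 min arrays enter every response below, differences from the wild type of the matching time are given where they end a call of a line's response. Since each gene was centred, the presence of root and shoot markers in these seedlings cannot be read from the values.

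**Figure D1:**
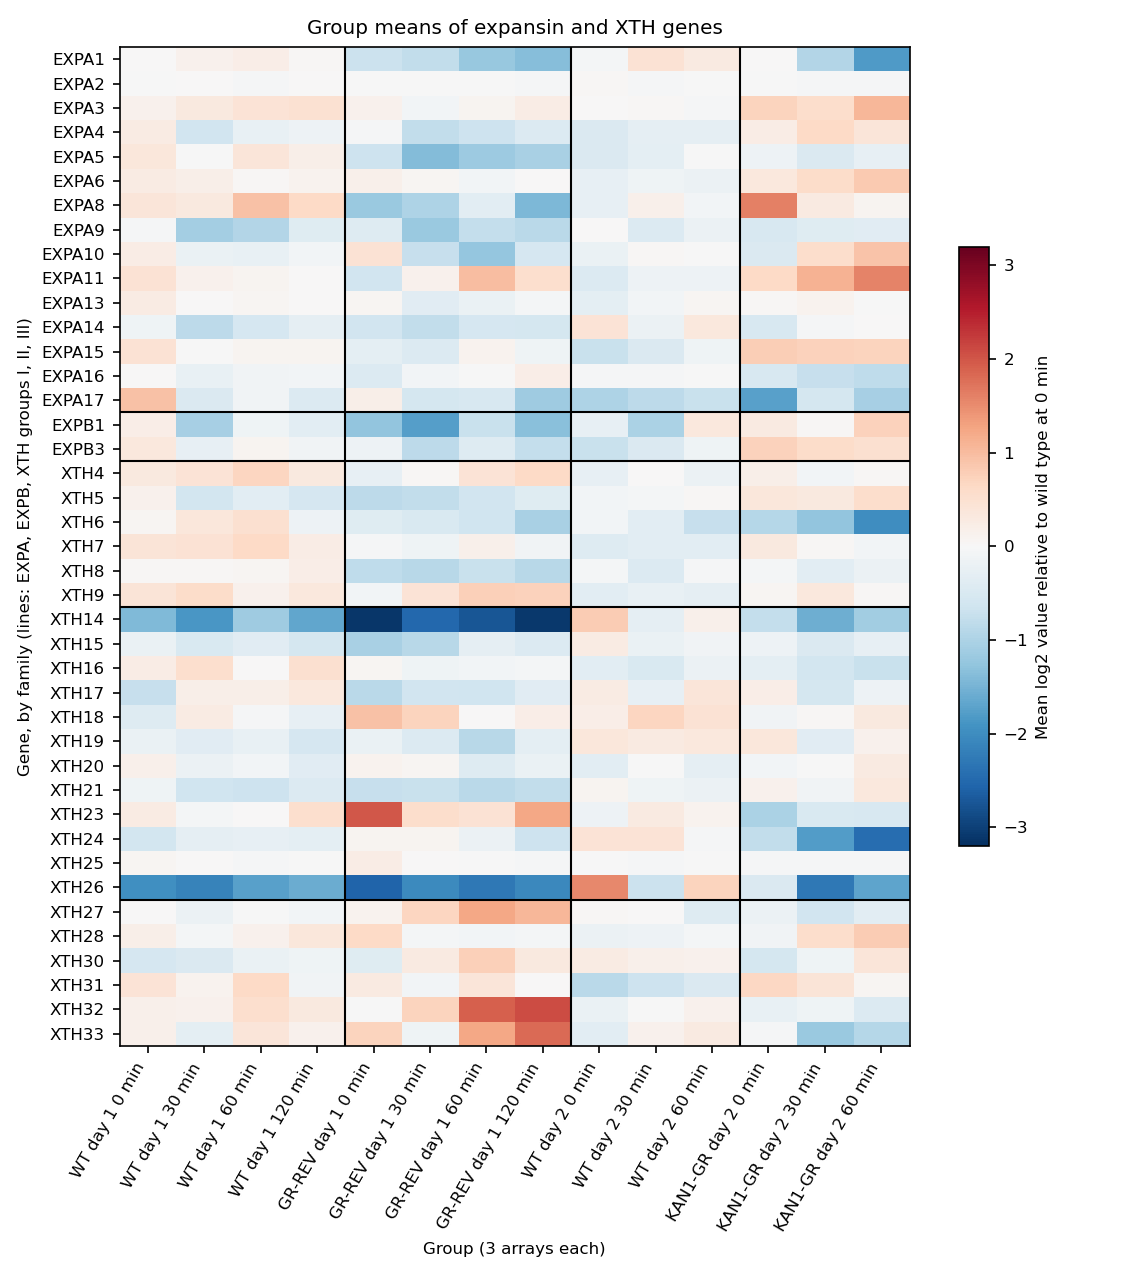
Mean log2 value (colour, relative to wild type at 0 min) of each of the 41 genes (rows, ordered by family) in the 14 groups of 3 arrays (columns). XTH14 and XTH26 were lower in the day 1 groups than in the day 2 wild type, XTH27 and XTH32 were highest in GR-REV from 60 min, and EXPA1 was lowest in KAN1-GR at 60 min.

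The median wall gene had a wider range over the groups than the median probe set. The range of the 14 group means had a median of 1.38 over the 39 tested members, from 0.64 for EXPA13 to 4.09 for XTH26, against a median of 0.69 over all tested probe sets. Their spread between arrays of a group was also larger, with a median residual SD of 0.28 against 0.19. EXPA2, known from germinating seeds, ranged over 0.072 and XTH25 over 0.29, and neither was tested.

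Within families the widest and narrowest ranges lay far apart. Among the EXPA genes EXPA8 ranged over 3.05, from -1.44 ± 0.29 in GR-REV at 120 min to 1.60 ± 0.27 in KAN1-GR at 0 min. EXPB1 ranged over 2.50 and EXPB3 over 1.58. In XTH group I the extremes were XTH6 at 2.50 and XTH4 at 0.96. In group II they were XTH26 and XTH20, the latter at 0.70. In group III XTH33, which carries a membrane anchor, ranged over 3.01 and XTH28, known from stamen filaments, over 1.02.

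Some expansins and XTHs had similar profiles. Over the 14 group means, which share arrays and collection days, the XTH most like EXPA8 was XTH8 (Pearson's r = 0.80), that most like EXPB1 was XTH5 (r = 0.84) and that most like EXPA13 was XTH7 (r = 0.50). EXPB3, too, was most like XTH5 (r = 0.70). From the XTH side, XTH26 was most like the root expansin EXPA14 (r = 0.73), XTH6 most like EXPA1 (r = 0.73), and XTH20 and XTH28 most like EXPA6 (r = 0.68 and 0.77). The best partners of XTH33 and XTH4 were both EXPA16 (r = 0.70 and 0.36). EXPA16 and XTH21 were the 2 tested members that passed in none of the 16 comparisons.

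Wild-type seedlings of the 2 days were compared first, since they carried no transgene and had not yet received DEX. At 0 min 23 of 39 members differed between the days, 16 higher and 7 lower on day 1, against 22.9% of all tested probe sets (11.8% higher and 11.2% lower). Their median difference was 0.39, and that of all tested probe sets 0.026. Of the 16 tested expansins 8 were higher on day 1 and 0 lower. Of the 11 tested XTHs of group II, 6 were lower on day 1 and 2 higher.

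XTH26 (AT4G28850), a root hair and root epidermis XTH, read -2.43, -2.42 and -1.06 on day 1 and 1.82, 1.71 and 1.06 on day 2. The 2 sets of arrays did not overlap, and the day 1 level was lower, with a difference of -3.50 ± 0.47 (an 11.3-fold difference, adjusted p = 1.4e-05). XTH14 (AT4G25820), also known from roots and root hairs, read -1.86, -1.82 and -0.59 on day 1 against 0.59, 1.03 and 0.82 on day 2, lower, with a difference of -2.23 ± 0.45 (adjusted p = 0.000812). All 6 root hair markers were lower on day 1 as well, among them PRP3 with a difference of -2.54 ± 0.47 and MRH6 with -1.91 ± 0.29. Over the 14 group means Pearson's r with the mean of these 6 markers was 0.99 for XTH14, 0.92 for XTH26, 0.83 for XTH15, 0.80 for XTH19 and 0.78 for EXPA14. The part of root hair tissue in these differences was not tested.

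The other group II XTHs that were lower on day 1 were the meristem-expressed XTH24 (-1.02 ± 0.25), XTH17 (-1.00 ± 0.35), XTH19 (-0.58 ± 0.21) and XTH15 (-0.48 ± 0.15), and XTH30 of group III differed by -0.79 ± 0.22. Among the higher members EXPA17 (AT4G01630), known from emerging lateral roots, read 0.85, 1.28 and 0.71 on day 1 against -1.23, -0.71 and -1.05 on day 2. It was 1.94 ± 0.34 higher, with no overlap (adjusted p = 0.000213). The hydrolase XTH31 was higher by 1.28 ± 0.25, EXPA15 by 1.17 ± 0.21, EXPB3 by 1.04 ± 0.28 and EXPA11 by 0.89 ± 0.28. EXPA5 (0.84), XTH7 (0.80), XTH9 (0.73), EXPA4 (0.72) and XTH16 (0.58) followed, and 6 more passed at 0.37 to 0.57.

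Of the 23 calls between the days 10 held without any single array, including those of XTH14, XTH26, XTH24, XTH31, EXPA15 and EXPA17. At 0 min, with 1 array left out at a time, the test was not passed by EXPA4 without wild type replicates 1 or 6 (0.57 to 0.65), by EXPA5 without wild type replicates 3 or 6 (0.62 to 0.65) and by EXPA11 without wild type replicates 1 or 6 (0.75 to 0.77). It was not passed by EXPB3 without wild type replicate 6 (0.69), by XTH15 without wild type replicates 2 or 6 (-0.45 to -0.36) and by XTH16 without wild type replicate 6 (0.42). It was not passed by XTH17 without wild type replicates 1, 2, 4 or 5 (-0.83 to -0.70), by XTH19 without wild type replicates 1, 3, 4 or 5 (-0.62 to -0.44) and by XTH30 without wild type replicates 1 or 5 (-0.70 to -0.48). After quantile normalisation XTH17 (-0.95) and with all probe sets tested XTH17 (-1.00) and XTH19 (-0.58) did not pass.

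Few of these genes changed in wild type after DEX. As the mean of both days, 4 of 39 members fell at 30 min and none rose, against 3.87% of all tested probe sets. EXPA9 fell by 0.74 ± 0.11 (adjusted p = 5.81e-05), EXPB1 by 1.02 ± 0.22, XTH26 by 1.19 ± 0.33 and XTH15 by 0.36 ± 0.10. XTH26 passed on day 2 alone (-2.21) and not on day 1 alone (-0.17, where 9.93% of probe sets passed), and the difference between the days, 2.04 ± 0.66, did not pass (adjusted p = 0.0810). EXPB1 passed on day 1 alone (-1.28) and not on day 2 alone (-0.76), and XTH15 passed on neither day alone (-0.26 and -0.47). EXPA9 (AT5G02260) read 0.024, 0.013 and -0.15 at 0 min and -0.84, -1.08 and -1.32 at 30 min on day 1. On day 2 it read 0.16, -0.013 and -0.11 at 0 min and -0.48, -0.35 and -0.47 at 30 min. Its arrays did not overlap between the times on either day. On day 2 alone the change of -0.44 did not pass (adjusted p = 0.214), in a comparison passed by 0.601% of probe sets. The root hair expansins EXPA7 and EXPA18, outside the set, fell at 30 min by 1.24 ± 0.21 and 1.09 ± 0.30, and the root hair marker means of day 2 went from 0.43 to 0.76 to -0.39 to -0.25. Their part in the fall of XTH26 was not tested.

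At 60 min 2 members passed, EXPA9 at -0.55 ± 0.11 and XTH32 at 0.36 ± 0.082, against 2.33% of probe sets. EXPA9 passed on day 1 alone (-0.91, where 4.14% of probe sets passed) and not on day 2 alone (-0.19, where 0.477% did), and XTH32 passed on neither day alone (0.38 and 0.33). At 120 min, measured on day 1, 1 member passed against 5.13% of probe sets. It was EXPA17, which fell by 1.37 ± 0.34 (adjusted p = 0.0138), from 0.85, 1.28 and 0.71 to -0.21, -0.84 and -0.25, with no overlap. At 30 min XTH15 did not pass without 9 of the 12 arrays (-0.39 to -0.29), that is, all but wild type 0 min replicate 4 and wild type 30 min replicates 2 and 6. XTH26 did not pass without 7 of the 12 arrays (-1.22 to -0.96), that is, all but wild type 0 min replicates 1, 2 and 6 and wild type 30 min replicates 2 and 6. With all probe sets tested XTH15 (-0.36) and XTH26 (-1.19) and with a spread that follows the mean XTH26 (-1.19) did not pass. At 60 min, with 1 array left out at a time, the test was not passed by XTH32 without wild type 0 min replicate 6 or wild type 60 min replicate 4 (0.30 to 0.33). At 120 min, with 1 array left out at a time, the test was not passed by EXPA17 without wild type 0 min replicate 2 or wild type 120 min replicate 2 (-1.21 to -1.17). With array weights EXPA17 (-1.31) did not pass.

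The wild-type changes differed between the days for 1 member at 30 min, against 3.45% of probe sets. This was EXPA4 (AT2G39700), which read 0.40, 0.18 and 0.18 at 0 min and -0.58, -0.63 and -0.66 at 30 min on day 1. On day 2 it read -0.18, -0.45 and -0.76 at 0 min and 0.074, 0.12 and -1.09 at 30 min. The arrays of the 2 times did not overlap on day 1 and overlapped on day 2, and the changes differed by -1.05 ± 0.29 (adjusted p = 0.0383). At 30 min EXPA4 did not pass without 9 of the 12 arrays (-1.08 to -0.84), that is, all but wild type 0 min replicates 3 and 4 and wild type 30 min replicate 6. With all probe sets tested EXPA4 (-1.05) did not pass. At 60 min 0 members passed in limma against 1.4% of probe sets, while 10 had an unadjusted p under 0.05, as did 16.3% of probe sets.

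**Figure D2:**
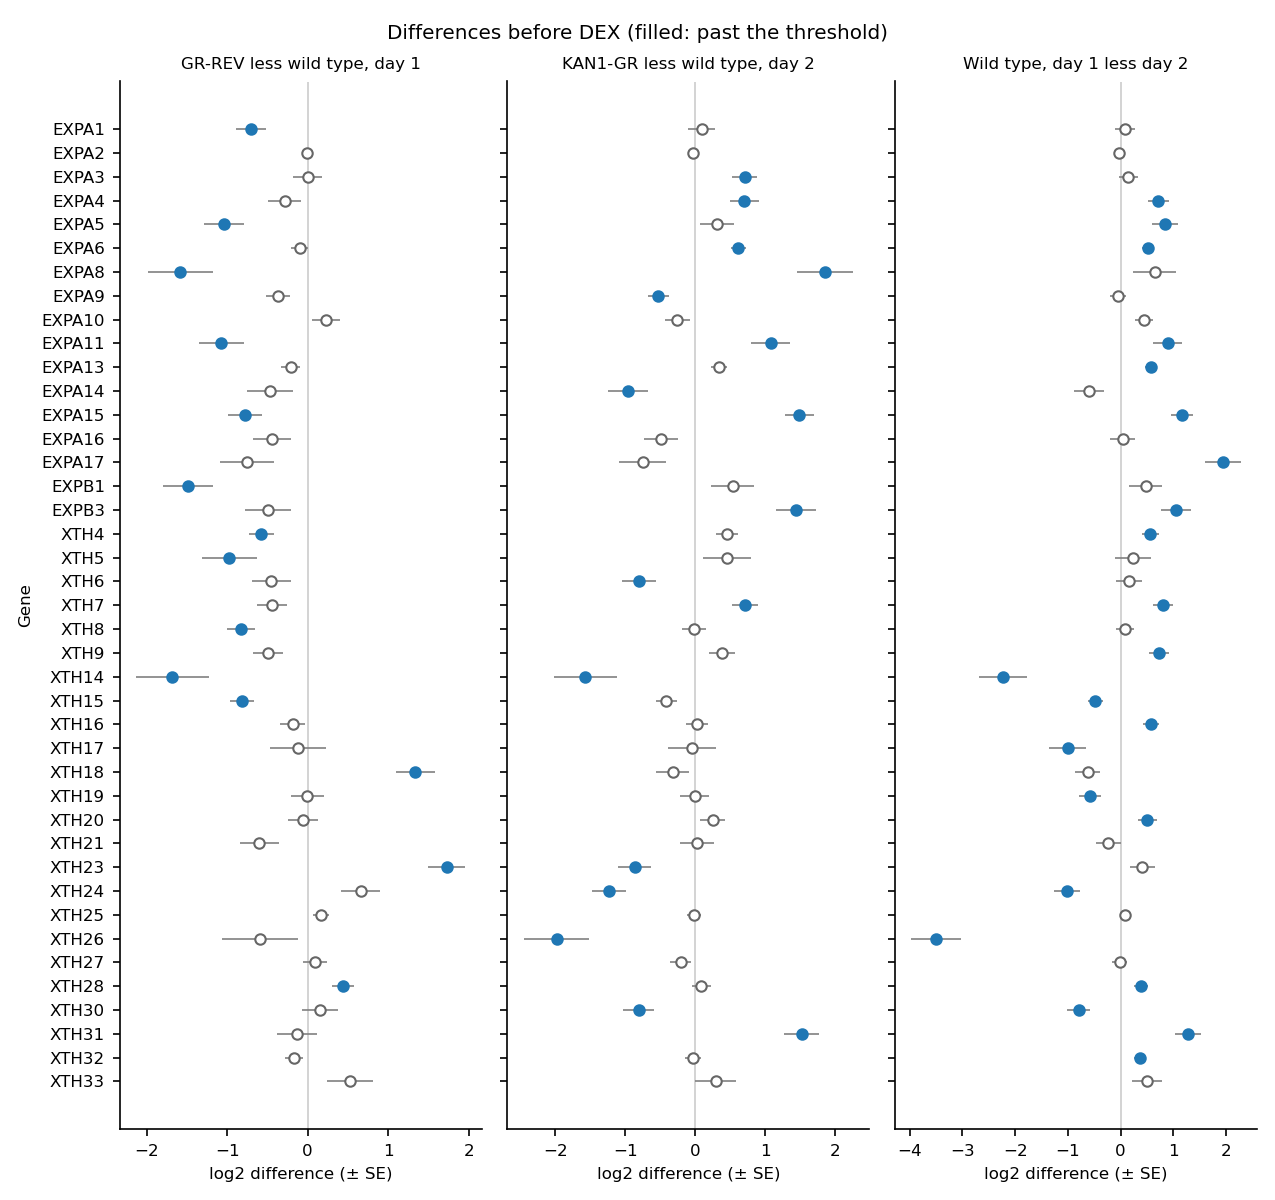
Log2 differences ± SE before DEX for the 41 genes, in GR-REV less wild type of day 1, KAN1-GR less wild type of day 2, and wild type of day 1 less day 2. Filled points passed, and EXPA2 and XTH25, drawn open, were not tested. EXPA8, EXPA11 and EXPA15 were lower in GR-REV and higher in KAN1-GR, and XTH14 was lower in all 3 panels.

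Before DEX the GR-REV seedlings already had lower levels of many expansins and group I XTHs than wild type. Of 39 members 14 differed, 11 lower and 3 higher, against 15.9% of all tested probe sets (8.08% lower and 7.77% higher). The members' median difference was -0.44 and that of all tested probe sets -0.011, and 31 of the 39 estimates were below 0. Of the 16 tested expansins 6 were lower and 0 higher. Of the 6 group I XTHs 3 were lower and 0 higher, whereas group II had 2 in each direction and group III 1 higher. Some markers of organs and cell types were lower in GR-REV as well. Of 5 shoot photosynthetic markers 3 were lower in GR-REV (LHCA1, PSAF and GAPA) and 0 higher, with array means of -0.31 to -0.072 against -0.0042 to 0.10 in wild type. Of 3 tested root markers 1 was lower, the endodermal gene CASP1 (-1.47 ± 0.17). The others tested differed by -0.31 and 0.11 and did not pass. The array means over the 4 root markers with a probe set, CASP1 included, were -0.55 to -0.30 against -0.058 to 0.074. Neither set of means overlapped with wild type, and the part of these markers in the wall gene differences was not tested. In KAN1-GR at 0 min 0 of 5 shoot and 0 of 3 tested root markers passed. Between the wild-type days at 0 min 0 of 5 shoot markers passed, and 1 root marker was higher and 1 lower on day 1.

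Among the expansins EXPA8 (AT2G40610) read -1.03, -1.51 and -1.04 in GR-REV and 0.42, -0.22 and 0.97 in wild type. It was lower, with a difference of -1.58 ± 0.40 (a 2.99-fold difference, adjusted p = 0.00594), and its arrays did not overlap. EXPB1 (AT2G20750) read -1.10, -1.53 and -1.18 against -0.11, 0.11 and 0.66, lower, with a difference of -1.49 ± 0.31 (adjusted p = 0.000844). The other lower expansins were EXPA11 (difference -1.07 ± 0.28), EXPA5 (-1.04 ± 0.25), EXPA15 (-0.78 ± 0.21) and EXPA1, known from guard cells (-0.71 ± 0.19). In group I the lower genes were XTH5 (difference -0.97 ± 0.34), XTH8 (-0.83 ± 0.17) and XTH4, tied to stem growth (-0.57 ± 0.16).

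XTH14 read -2.65, -2.43 and -4.23 in GR-REV and -1.86, -1.82 and -0.59 in wild type, lower, with a difference of -1.68 ± 0.45 (adjusted p = 0.00917). The shade-responsive XTH15 was lower, with a difference of -0.82 ± 0.15. Root hair markers moved with both, 5 of 6 being lower in GR-REV. Their array means were -2.96 to -1.89 against -1.47 to -0.37 in wild type, and their part in the result was not tested. Of the other members that correlated with these markers, XTH26 had its lowest group mean here (-2.56) and did not pass. XTH19 and EXPA14 did not pass either.

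In group II 2 members were higher in GR-REV at 0 min. XTH23 (AT4G25810) read 2.08, 2.07 and 1.81 against 0.013, 0.63 and 0.15 in wild type, higher by 1.72 ± 0.23 (a 3.31-fold difference, adjusted p = 2.29e-06). XTH18 (AT4G30280) read 1.03, 1.16 and 0.61 against -0.95, -0.24 and -0.024, higher by 1.34 ± 0.24 (adjusted p = 0.000143). Neither overlapped with wild type. The 3 touch genes TCH2, TCH3 and XTH22 were higher as well, XTH22 by 1.56 ± 0.27, and their part in the XTH values was not tested. Pearson's r with the touch gene mean over 14 group means was 0.84 for XTH23 and 0.61 for XTH18. The remaining higher member was XTH28 of group III at 0.44 ± 0.14. At 0 min, with 1 array left out at a time, the test was not passed by EXPA8 without wild type replicate 3 (-1.29), by EXPA15 without wild type replicate 1 or GR-REV replicate 2 (-0.69 to -0.67) and by XTH4 without wild type replicate 3 or GR-REV replicates 1 or 2 (-0.53 to -0.45). It was not passed by XTH5 without wild type replicates 1 or 2 or GR-REV replicates 2 or 3 (-0.98 to -0.72), by XTH14 without wild type replicate 3 or GR-REV replicate 3 (-1.26 to -1.11) and by XTH28 without wild type replicates 1 or 2 or GR-REV replicates 1 or 2 (0.37 to 0.43). After quantile normalisation EXPA1 (-0.53), XTH5 (-0.77), XTH14 (-0.64), XTH15 (-0.47) and XTH28 (0.21), with all probe sets tested XTH5 (-0.97) and with array weights XTH5 (-1.04) and XTH14 (-1.44) did not pass.

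Before DEX the KAN1-GR seedlings differed from wild type of day 2 in 17 of 39 members, 9 higher and 8 lower, against 10.7% of all tested probe sets (4.94% higher and 5.78% lower). The members' median difference was 0.031, and that of all tested probe sets -0.0021. By family, 7 of the 16 tested expansins were higher and 2 lower, and 4 of the 11 tested group II XTHs were lower and 0 higher. The same day 2 wild-type arrays enter the comparison between the wild-type days. There EXPA4, EXPA6, EXPA11, EXPA15, EXPB3, XTH7, XTH14, XTH24, XTH26, XTH30 and XTH31 passed too, in the same direction. EXPA3, EXPA8, EXPA9, EXPA14, XTH6 and XTH23 did not pass there. The part of the shared arrays in the KAN1-GR differences was not tested.

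EXPA8 read 1.51, 1.91 and 1.40 in KAN1-GR and -0.052, 0.052 and -0.77 in wild type. It was higher by 1.86 ± 0.40 (a 3.63-fold difference, adjusted p = 0.00290), and its arrays did not overlap. EXPA15 (AT2G03090) read 0.87, 0.77 and 0.70 against -0.35, -0.81 and -0.96, higher by 1.49 ± 0.21 (adjusted p = 2.68e-05). EXPB3 was higher by 1.45 ± 0.28, EXPA11 by 1.08 ± 0.28, and EXPA3, EXPA4 and EXPA6 by 0.71, 0.70 and 0.62. EXPA14 and EXPA9 were the 2 lower expansins, at -0.96 ± 0.29 and -0.53 ± 0.15.

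Among the XTHs the hydrolase XTH31 (AT3G44990) read 0.70, 0.61 and 0.71 in KAN1-GR against -0.39, -0.68 and -1.48, higher by 1.52 ± 0.25 (adjusted p = 0.000180). XTH7 of group I was higher by 0.71 ± 0.19 and XTH6 of the same group lower, with a difference of -0.81 ± 0.24. XTH26 read -0.70, 0.16 and -0.83 against 1.82, 1.71 and 1.06, lower, with a difference of -1.99 ± 0.47 (adjusted p = 0.00634). XTH14 was lower, with a difference of -1.58 ± 0.45, and 3 of the 6 root hair markers were lower too (EXPA7, EXPA18 and MRH6), with array means of -0.70 to -0.21 against 0.43 to 0.76. Their part in the result was not tested. XTH24 (-1.24 ± 0.25), XTH23 (-0.87 ± 0.23) and XTH30 (-0.81 ± 0.22) were lower as well. Of the 3 touch genes 1 was lower, XTH22, with a difference of -0.85 ± 0.27, while the median difference of the 3 was -0.070. The touch gene means, which include XTH22, were -0.52 to -0.32 against -0.25 to 0.092 in wild type. At 0 min, with 1 array left out at a time, the test was not passed by EXPA3 without wild type replicate 6 or KAN1-GR replicate 1 (0.61 to 0.66), by EXPA9 without wild type replicate 4 or KAN1-GR replicates 1 or 2 (-0.52 to -0.42) and by EXPA11 without wild type replicate 6 or KAN1-GR replicate 1 (0.94 to 1.02). It was not passed by XTH7 without wild type replicate 6 or KAN1-GR replicates 1 or 3 (0.60 to 0.68), by XTH14 without wild type replicates 5 or 6 or KAN1-GR replicates 1 or 3 (-1.57 to -1.46) and by XTH23 without wild type replicate 6 or KAN1-GR replicates 1 or 3 (-0.84 to -0.79). It was not passed by XTH30 without wild type replicates 5 or 6 or KAN1-GR replicates 1 or 3 (-0.82 to -0.70). EXPA4 did not pass without 5 of the 6 arrays (0.55 to 0.74), that is, all but wild type replicate 4. EXPA14 did not pass without 5 of the 6 arrays (-1.04 to -0.70), that is, all but wild type replicate 6. XTH6 did not pass without 5 of the 6 arrays (-0.90 to -0.64), that is, all but wild type replicate 4. After quantile normalisation XTH6 (-0.85) and with a spread that follows the mean XTH14 (-1.58) did not pass.

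At 0 min 5 of 39 members passed in both lines, against 2.44% of all tested probe sets. EXPA8, EXPA11 and EXPA15 were lower in GR-REV and higher in KAN1-GR, XTH23 was higher in GR-REV and lower in KAN1-GR, and XTH14 was lower in both. The 2 differences come from different days and wild types, and the day itself separated EXPA11, EXPA15 and XTH14 in wild type, as given above.

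The GR-REV response was the change of GR-REV from 0 min less the change of day 1 wild type. It raised 2 of 39 members at 30 min, against 1.38% of all tested probe sets, and lowered none. At 60 min 9 passed, 5 higher and 4 lower, against 4.36% (1.75% higher and 2.61% lower), and at 120 min 7 passed, 6 higher and 1 lower, against 3.84% (1.18% higher and 2.65% lower). The median response of the members was 0.11, 0.065 and 0.13 at 30, 60 and 120 min, and that of all tested probe sets 0.0020, -0.0070 and -0.053. Group III held both members that passed at 30 min, 3 of the 9 at 60 min and 3 of the 7 at 120 min.

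XTH32 (AT2G36870), a member of the hydrolase branch, rose at every time after DEX in GR-REV. Its GR-REV arrays read -0.071, -0.11 and 0.16 at 0 min, 0.41, 0.96 and 0.75 at 30 min, 1.85, 1.91 and 1.98 at 60 min and 2.10, 2.04 and 2.12 at 120 min. Wild type read 0.081, 0.086 and 0.32 at 0 min, 0.16, 0.077 and 0.21 at 30 min, 0.46, 0.55 and 0.61 at 60 min and 0.10, 0.51 and 0.35 at 120 min. From 30 min on every GR-REV array was above every wild-type array of its time. The response was 0.73 ± 0.16 at 30 min (adjusted p = 0.0142), 1.54 ± 0.16 at 60 min (adjusted p = 1.69e-07) and 1.94 ± 0.16 at 120 min (a 3.83-fold rise, adjusted p = 2.8e-09). The response at 120 min exceeded that at 30 min by 1.21 ± 0.16 (adjusted p = 8.78e-05).

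XTH27 (AT2G01850), known from veins and developing vessel cells, rose at the same times. GR-REV read 0.055, 0.067 and 0.18 at 0 min, 0.73, 0.77 and 0.57 at 30 min, 1.28, 1.17 and 1.25 at 60 min and 1.12, 0.98 and 1.05 at 120 min, while the 12 wild-type arrays of day 1 lay between -0.27 and 0.054. No GR-REV array overlapped with wild type after DEX, nor at 0 min, where the lowest was 0.055 against a highest wild-type value of 0.054. Its response was 0.79 ± 0.21, 1.14 ± 0.21 and 1.06 ± 0.21 at the 3 times (adjusted p = 0.0441, 0.000674 and 0.00232). Over the 14 group means XTH27 and XTH32 were each other's closest member of either family (r = 0.90).

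XTH28 fell and XTH33 separated from wild type late. XTH28 (AT1G14720) read 0.66, 0.72 and 0.51 in GR-REV at 0 min, 0.071, -0.17 and -0.13 at 60 min and -0.023, -0.054 and -0.089 at 120 min. It fell by 0.66 ± 0.20 at 60 min (adjusted p = 0.0487) and by 0.85 ± 0.20 at 120 min (adjusted p = 0.00969), from the higher level at 0 min given above. Against wild type of 60 min alone it differed by -0.22, which did not pass. XTH33 (AT1G10550) read -0.51, -0.045 and 0.14 in GR-REV at 30 min and 1.22, 1.95 and 2.31 at 120 min, against -0.17, 0.10 and 0.52 in wild type at 120 min. Its response at 120 min, 1.15 ± 0.41, did not pass (adjusted p = 0.121), while it exceeded that at 30 min by 1.51 ± 0.41 (adjusted p = 0.0498). XTH32 and XTH33 were the 2 members whose response differed between 30 and 120 min, against 1.54% of probe sets.

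**Figure D3:**
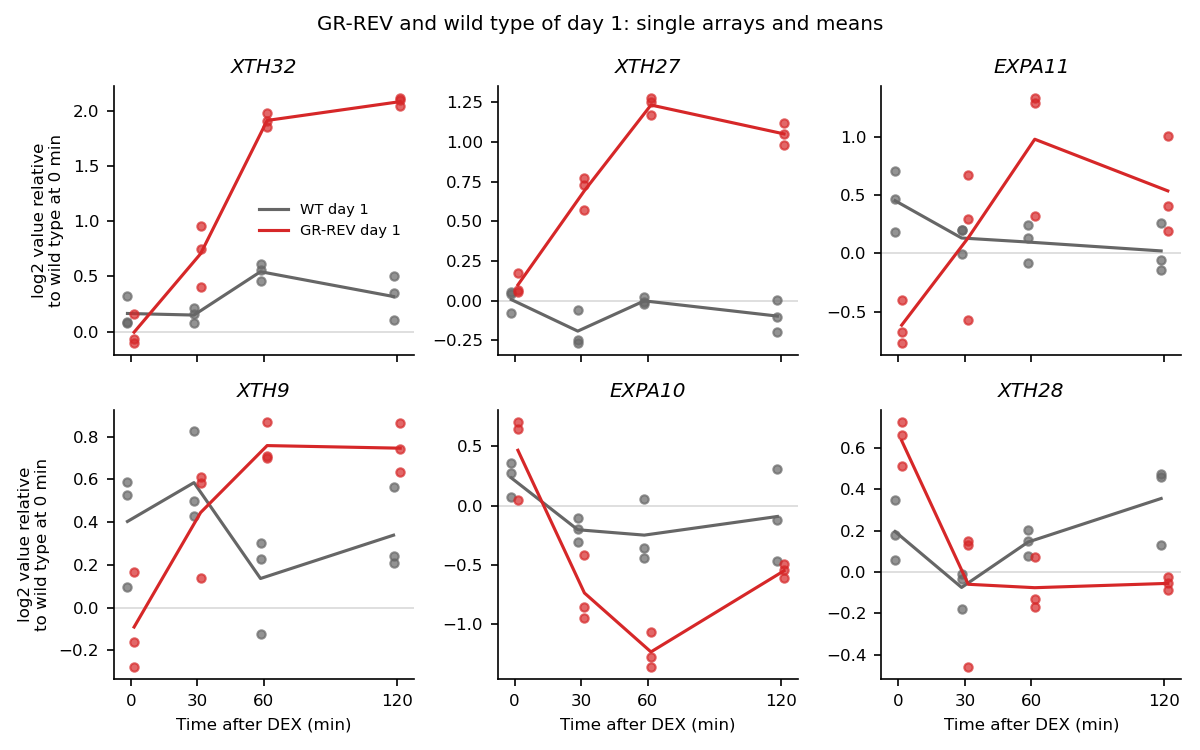
Log2 values relative to wild type at 0 min of 6 genes against time after DEX (min), in day 1 wild type (grey) and GR-REV (red), with points for single arrays and lines for the means of 3. XTH32 and XTH27 rose from 30 min, EXPA10 fell to its lowest at 60 min, and EXPA11 and XTH28 moved from levels at 0 min that lay below and above wild type.

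Among the expansins 2 responded in GR-REV. EXPA11 (AT1G20190) read -0.40, -0.68 and -0.77 at 0 min, -0.57, 0.68 and 0.30 at 30 min, 1.33, 0.32 and 1.29 at 60 min and 0.19, 0.41 and 1.01 at 120 min, starting below wild type and ending above most of its arrays. It rose by 1.95 ± 0.40 at 60 min (a 3.87-fold rise, adjusted p = 0.00211) and by 1.59 ± 0.40 at 120 min (adjusted p = 0.0165). GR-REV was below wild type at 0 min, as given above. Against wild type of the same time alone the difference was 0.88 at 60 min, which passed, and 0.52 at 120 min, which did not.

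EXPA10 (AT1G26770), an expansin of leaf and petiole growth, moved the other way. It read 0.65, 0.71 and 0.045 in GR-REV at 0 min, -0.41, -0.85 and -0.94 at 30 min, -1.28, -1.06 and -1.36 at 60 min and -0.49, -0.54 and -0.61 at 120 min, against 0.055, -0.36 and -0.44 in wild type at 60 min. At 60 min the groups did not overlap, and the response was a fall of 1.22 ± 0.25 (adjusted p = 0.00223). At 30 and 120 min the estimates were -0.77 ± 0.25 and -0.69 ± 0.25 and did not pass (adjusted p = 0.151 and 0.125). EXPA1 had no response that passed, with -0.72 ± 0.27 at 60 min. It was already lower than wild type at 0 min, with a difference of -0.71 that passed. From wild type of the same time it differed by -0.91, -1.43 and -1.39 at 30, 60 and 120 min, each of which passed. In these same-time comparisons 9.05%, 12.8% and 15.4% of all tested probe sets passed.

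In groups I and II the responses were mixed. XTH9 (AT4G03210), a group I member known from shoot apices and stems, read -0.16, -0.28 and 0.17 in GR-REV at 0 min and 0.71, 0.70 and 0.87 at 60 min against -0.12, 0.23 and 0.30 in wild type at 60 min. It rose by 1.12 ± 0.26 at 60 min (adjusted p = 0.00812) and 0.90 ± 0.26 at 120 min. XTH4 rose at 120 min by 0.91 ± 0.23 (adjusted p = 0.0156). XTH15 rose by 0.89 ± 0.21 and 0.95 ± 0.21 at 60 and 120 min. XTH4, XTH9 and XTH15 all had estimates below wild type at 0 min, and against wild type of 120 min alone they differed by 0.34, 0.41 and 0.13 in that order, none of which passed. At 60 min XTH15 read -0.27, -0.16 and -0.41 in GR-REV against -0.63, -0.24 and -0.19 in wild type, and this difference of 0.073 did not pass either.

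XTH18 and XTH23, the members that were high in GR-REV before DEX, fell at 60 min by 1.29 ± 0.34 and 1.28 ± 0.33 (adjusted p = 0.0205 and 0.0190). XTH23 read 0.63, 0.68 and 0.10 in GR-REV at 60 min against 0.090, 0.29 and -0.31 in wild type, and XTH18 -0.31, 0.44 and -0.055 against 0.12, 0.059 and -0.26. Against wild type of 60 min alone both estimates turned, to 0.051 for XTH18 and 0.45 for XTH23, and neither passed. The touch gene XTH22 fell at 30 min by 1.55 ± 0.38 (adjusted p = 0.0244), and the mean of the 3 touch genes in GR-REV went from 0.93 to 1.19 at 0 min to 0.16 to 0.53 at 60 min.

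Some of the GR-REV calls depended on single arrays or on the normalisation. At 30 min, with 1 array left out at a time, the test was not passed by XTH32 without wild type 0 min replicate 3, wild type 30 min replicate 2, GR-REV 0 min replicate 2 or GR-REV 30 min replicate 2 (0.60 to 0.69). XTH27 did not pass without 11 of the 12 arrays (0.75 to 0.86), that is, all but GR-REV 30 min replicate 3. After quantile normalisation XTH27 (0.66) and XTH32 (0.69) and with all probe sets tested XTH27 (0.79) did not pass. At 60 min, with 1 array left out at a time, the test was not passed by XTH23 without wild type 0 min replicate 1, wild type 60 min replicate 2 or GR-REV 60 min replicate 3 (-1.15 to -1.09). XTH18 did not pass without 7 of the 12 arrays (-1.25 to -1.01), that is, all but wild type 0 min replicates 2 and 3, wild type 60 min replicate 3, GR-REV 0 min replicate 3 and GR-REV 60 min replicate 2. XTH28 did not pass without 9 of the 12 arrays (-0.69 to -0.59), that is, all but wild type 0 min replicate 3, GR-REV 0 min replicate 3 and GR-REV 60 min replicate 1. After quantile normalisation EXPA10 (-0.63), XTH15 (0.72), XTH18 (-1.02), XTH23 (-0.67), XTH27 (0.85) and XTH28 (-0.42) and with all probe sets tested XTH28 (-0.66) did not pass. At 120 min, with 1 array left out at a time, the test was not passed by EXPA11 without wild type 0 min replicate 1 or GR-REV 120 min replicate 3 (1.35 to 1.46) and by XTH4 without wild type 120 min replicate 2 or GR-REV 120 min replicate 3 (0.79 to 0.83). XTH9 did not pass without 9 of the 12 arrays (0.81 to 0.96), that is, all but wild type 0 min replicate 3, wild type 120 min replicate 1 and GR-REV 0 min replicate 3. After quantile normalisation XTH4 (0.92), XTH9 (0.91), XTH15 (0.85), XTH27 (0.94) and XTH28 (-0.59) and with all probe sets tested XTH9 (0.90) did not pass. At 120 against 30 min XTH33 did not pass without 13 of the 18 arrays (1.27 to 1.62), that is, all but wild type 0 min replicates 1 and 3, wild type 120 min replicate 3, GR-REV 30 min replicate 3 and GR-REV 120 min replicate 1. After quantile normalisation XTH33 (1.19) and with all probe sets tested XTH33 (1.51) did not pass.

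The KAN1-GR response, computed in the same way on day 2, lowered 2 of 39 members at 30 min, against 2.4% of all tested probe sets. At 60 min 7 passed, 3 higher and 4 lower, against 6.84% (2.88% higher and 3.96% lower). The members' median response was -0.11 and -0.12 at the 2 times, and that of all tested probe sets 0.017 and -0.00064. Group III held 4 of the 7 calls at 60 min, and group I and the beta-expansins none.

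EXPA1 (AT1G69530) fell at both times. Its KAN1-GR arrays read -0.011, 0.11 and -0.026 at 0 min, -1.02, -0.94 and -0.88 at 30 min and -2.06, -1.66 and -1.74 at 60 min. Wild type read -0.12, 0.012 and -0.10 at 0 min, 0.42, 0.15 and 0.82 at 30 min and 0.34, 0.52 and 0.0076 at 60 min. The lines overlapped before DEX and at neither later time. The fall was 1.50 ± 0.27 at 30 min (adjusted p = 0.000548) and 2.20 ± 0.27 at 60 min (a 4.59-fold fall, adjusted p = 6.37e-07).

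EXPA10 rose instead. It read -0.28, -0.65 and -0.47 in KAN1-GR at 0 min, 0.52, 0.45 and 0.74 at 30 min and 0.62, 1.07 and 1.06 at 60 min, while wild type read 0.17, -0.014 and -0.16 at 60 min. The rise was 1.17 ± 0.25 at 60 min (adjusted p = 0.00182), and the estimate at 30 min, 0.78 ± 0.25, did not pass (adjusted p = 0.103). EXPA8 had estimates of -1.75 ± 0.57 and -1.67 ± 0.57 that did not pass (adjusted p = 0.111 and 0.0727). EXPA11 was above wild type at all 3 times, by 1.08, 1.26 and 1.76, where 14% and 18% of probe sets passed at 30 and 60 min, and its response of 0.67 ± 0.40 at 60 min did not pass (adjusted p = 0.387).

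In group III 4 members responded, in both directions. The membrane-anchored XTH33 read -0.029, -0.015 and -0.057 at 0 min, -0.74, -1.79 and -1.01 at 30 min and -0.62, -1.38 and -0.70 at 60 min in KAN1-GR. It fell by 1.62 ± 0.41 at 30 min (adjusted p = 0.0214) and 1.49 ± 0.41 at 60 min (adjusted p = 0.0190). XTH28 read 0.00078, -0.21 and -0.092 at 0 min and 0.85, 0.83 and 0.79 at 60 min, against -0.058, -0.22 and 0.052 in wild type, and rose by 0.81 ± 0.20 (adjusted p = 0.00763). XTH30 rose by 1.05 ± 0.31 (adjusted p = 0.0366), from the low level before DEX, and against wild type of 60 min alone it differed by 0.24, which did not pass. XTH32 fell by 0.54 ± 0.16 (adjusted p = 0.0416), and the change of KAN1-GR from its own 0 min alone was -0.20, which did not pass (12.3% of probe sets did).

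XTH24 (AT4G30270) was the group II member that passed. It read -0.77, -0.62 and -1.00 in KAN1-GR at 0 min, -1.19, -2.11 and -2.04 at 30 min and -2.40, -2.37 and -2.56 at 60 min, against -0.22, 0.11 and -0.026 in wild type at 60 min, and fell by 1.16 ± 0.35 (adjusted p = 0.0372). XTH24, XTH18 and XTH19 are consecutive protein-coding genes on TAIR10.1. The neighbours XTH18 and XTH19 had responses of 0.18 ± 0.34 and -0.20 ± 0.29 at 60 min, which did not pass. At 30 min, with 1 array left out at a time, the test was not passed by XTH33 without wild type 0 min replicate 6, wild type 30 min replicate 4 or KAN1-GR 30 min replicate 2 (-1.53 to -1.28). At 60 min, with 1 array left out at a time, the test was not passed by XTH33 without wild type 0 min replicate 6, wild type 60 min replicate 5 or KAN1-GR 60 min replicate 2 (-1.35 to -1.15). XTH24 did not pass without 9 of the 12 arrays (-1.20 to -1.04), that is, all but wild type 0 min replicate 6, wild type 60 min replicate 4 and KAN1-GR 0 min replicate 3. XTH30 did not pass without 8 of the 12 arrays (0.92 to 1.06), that is, all but wild type 0 min replicate 4, wild type 60 min replicate 5, KAN1-GR 0 min replicate 2 and KAN1-GR 60 min replicate 1. XTH32 did not pass without 9 of the 12 arrays (-0.57 to -0.43), that is, all but wild type 0 min replicate 4, wild type 60 min replicate 5 and KAN1-GR 60 min replicate 2. After quantile normalisation XTH24 (-0.21) and XTH28 (0.62) and with all probe sets tested XTH24 (-1.16) and XTH30 (1.05) did not pass.

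**Figure D4:**
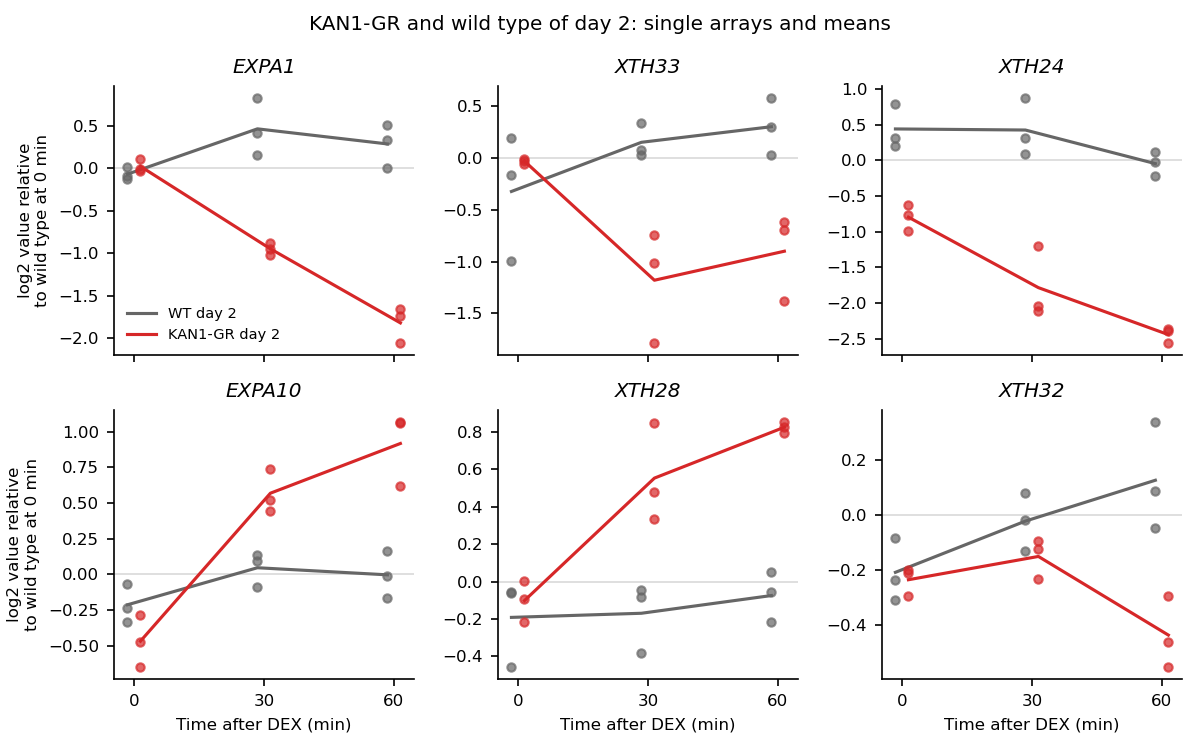
Log2 values relative to wild type at 0 min of 6 of the 7 genes that passed in KAN1-GR at 60 min (all but XTH30), against time after DEX (min), in day 2 wild type (grey) and KAN1-GR (red), with points for single arrays and lines for the means of 3. EXPA1 and XTH33 fell below wild type, XTH24 fell from a level already below it, and EXPA10 and XTH28 rose above it.

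The difference between the 2 responses was tested directly, each response being taken against the wild type of its own day. At 30 min 3 of 39 members differed, against 2.25% of all tested probe sets, and at 60 min 6 differed, against 6.36%. EXPA10 fell in GR-REV and rose in KAN1-GR at 60 min, so that the responses differed by -2.39 ± 0.35 (adjusted p = 2.17e-05), and at 30 min by -1.54 ± 0.35 (adjusted p = 0.00962). XTH28 had the same directions, with differences of -1.47 ± 0.28 at 60 min (adjusted p = 0.000646) and -1.06 ± 0.28 at 30 min.

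XTH32 rose in GR-REV and fell in KAN1-GR at 60 min, a difference of 2.08 ± 0.23 (adjusted p = 2.08e-07). XTH27 differed at 30 min by 1.22 ± 0.29 (adjusted p = 0.0167), and at 60 min its difference of 0.86 ± 0.29 did not pass (adjusted p = 0.0778). EXPA1 was lower in the KAN1-GR response by 1.47 ± 0.38 (adjusted p = 0.0129), with both responses below 0. EXPA15 differed by 1.45 ± 0.42, from 0.81 in GR-REV and -0.64 in KAN1-GR, neither of which passed by itself. XTH23 differed by -1.54 ± 0.47 (adjusted p = 0.0413). Its GR-REV response of -1.28 started from the higher level before DEX. Against wild type of 60 min alone that estimate turned to 0.45 and did not pass, as given above.

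The difference of XTH28 at 30 min did not pass without 12 of the 24 arrays, each left out singly, at -1.05 to -0.86: wild type 0 min replicates 1, 2, 4 and 5, wild type 30 min replicates 1, 3 and 6, GR-REV 0 min replicates 1 and 2, GR-REV 30 min replicate 1, KAN1-GR 0 min replicate 2 and KAN1-GR 30 min replicate 1. The difference of EXPA15 at 60 min did not pass without 6 of the 24 arrays, each left out singly, at 1.29 to 1.41: wild type 0 min replicates 1, 5 and 6, wild type 60 min replicates 1 and 6 and GR-REV 0 min replicate 2. The difference of XTH23 at 60 min did not pass without 14 of the 24 arrays, each left out singly, at -1.59 to -1.18: wild type 0 min replicates 1, 3, 4 and 6, wild type 60 min replicates 1, 2, 4 and 6, GR-REV 0 min replicates 1 and 2, GR-REV 60 min replicate 3, KAN1-GR 0 min replicates 1 and 3 and KAN1-GR 60 min replicate 2. After quantile normalisation no difference at 30 min passed (EXPA10 -1.16, XTH27 1.02 and XTH28 -0.71), nor did that of XTH23 at 60 min (-1.25), which also failed with array weights (-1.44) and with all probe sets tested (-1.54). For XTH33, with 0.33 in GR-REV and -1.49 in KAN1-GR at 60 min, the difference of 1.82 ± 0.57 did not pass (adjusted p = 0.0523, 95% interval 0.65 to 2.99). EXPA11 rose in GR-REV and had a positive estimate in KAN1-GR, and the difference of 1.28 ± 0.56 did not pass either (adjusted p = 0.204, 95% interval 0.14 to 2.42).

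**Figure D5:**
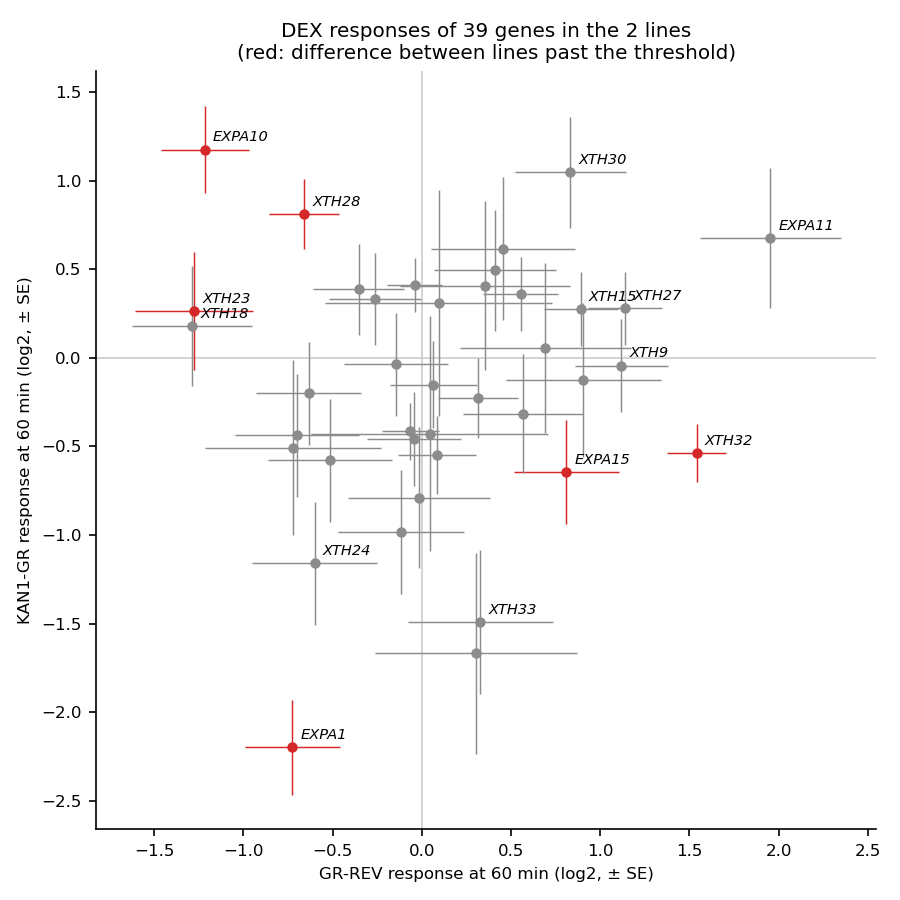
Response of each of the 39 tested genes at 60 min in GR-REV (horizontal axis, log2, ± SE) and KAN1-GR (vertical axis, log2, ± SE), with genes named that passed in either line or in the difference between them. Red points mark the 6 genes whose responses differed between the lines, with EXPA10 and XTH28 at upper left (lower in GR-REV, higher in KAN1-GR) and XTH32 at lower right.

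Over both lines, 14 of the 39 members passed in at least 1 of the 5 DEX responses, against 12.3% of all tested probe sets. They were 3 expansins (EXPA1, EXPA10 and EXPA11) and 11 XTHs (XTH4, XTH9, XTH15, XTH18, XTH23, XTH24, XTH27, XTH28, XTH30, XTH32 and XTH33), and XTH31 was the group III member that did not pass in any. In the authors' deposited table the genotype by time p-value was under 0.05 for 4 members in GR-REV (EXPA10, XTH23, XTH27 and XTH32), against 3.07% of the probe sets with a p-value, and for 3 in KAN1-GR (EXPA1, EXPA10 and XTH28), against 4.19%.

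Other genes of wall building and wall acidification were counted in the same 5 responses, in at least 1 of which 7.8% of all tested probe sets fell and 5.33% rose. Of 9 tested genes of xyloglucan synthesis and trimming, 2 fell and 0 rose in at least 1 DEX response, with median responses at 60 min of -0.21 in GR-REV and 0.14 in KAN1-GR. Those were XXT1, a xylosyltransferase, which fell in GR-REV at 30 min by 0.65 ± 0.17, and CSLC4, the glucan synthase of the xyloglucan backbone, which fell in KAN1-GR by 0.90 ± 0.19 at 30 min and 0.80 ± 0.19 at 60 min. Of 6 tested genes of pectin synthesis and modification, 2 fell and 0 rose in at least 1 DEX response, with median responses at 60 min of 0.17 in GR-REV and -0.55 in KAN1-GR. QUA2, needed for pectin synthesis, fell in KAN1-GR by 0.65 ± 0.16 and 1.03 ± 0.16, and the pectin methylesterase PME3 fell at 60 min by 0.82 ± 0.18. Of 8 tested genes of primary wall cellulose synthesis, 1 fell and 0 rose in at least 1 DEX response, with median responses at 60 min of -0.014 in GR-REV and -0.18 in KAN1-GR. CESA2, a cellulose synthase subunit, fell in GR-REV at 120 min by 0.59 ± 0.16. Of 3 tested genes of secondary wall cellulose synthesis, 0 fell and 0 rose in at least 1 DEX response, with median responses at 60 min of -0.0080 in GR-REV and -0.15 in KAN1-GR. Of 3 tested genes of the plasma membrane proton pumps, 0 fell and 0 rose in at least 1 DEX response, with median responses at 60 min of -0.012 in GR-REV and -0.085 in KAN1-GR. These pumps acidify the wall, the condition under which expansins act.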

How the data were processed

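RNA of whole seedlings was measured on 42 ATH1 arrays in 14 groups of 3, grouped by line, time and day as the labels give them. The number of arrays limits the precision. Per the submitters' processing notes the authors used GCRMA (no version is named in the sources used here). Its output was deposited as log2 values, a base taken from the method since no label states it. For every probe set the 6 wild-type arrays at 0 min have a median of 0 (largest deviation 5e-07), so the values are relative and not levels. A second deposited table held the same values with p-values of the authors' ANOVA of genotype and time, a unit other than expression, for 16164 of 22810 probe sets.

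The 16129 probe sets with such a p-value, less 35 control probe sets, were tested. With limma 3.58.1 in R 4.3.3, group means were estimated from all arrays together (28 residual and 3.92 prior degrees of freedom). Moderated two-sided tests were adjusted by Benjamini-Hochberg within each comparison, over all tested probe sets, at a threshold of 0.05. The response of a line was its change since 0 min minus the change in wild type collected that day. The same fit was tested on simulated data.

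Replicate numbers did not pair day 1 wild type with GR-REV: deviations of their same-numbered arrays of a time correlated at -0.31 to 0.17. Pairing on day 2 or across times was not checked. Members, gene lists and the naming rule were chosen with earlier results of these data known. By that rule the members past the threshold in a comparison (at most 10 in each direction), those with the widest and narrowest range of group means in each family, and their closest partner in the other family were named. EXPA16 and XTH21, the neighbours XTH18 and XTH19 in KAN1-GR, EXPA8 in KAN1-GR after DEX and members set beside root hair or touch genes were named after their values had been seen. Alternatives were quantile normalisation, median centring, all probe sets, array weights, a spread that follows the mean, a replicate block, single reference groups and leaving out each array.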

Additional observations from a re-analysis of the deposited data

Results flagged for a closer look

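The responses to DEX of 8 genes differed between the lines, or in wild type between the days, by a test of the difference itself. Between GR-REV and KAN1-GR at 30 min these were EXPA10 (-1.54), XTH28 (-1.06) and XTH27 (1.22). At 60 min they were EXPA10 (-2.39), XTH23 (-1.54), XTH28 (-1.47), EXPA15 (1.45), EXPA1 (1.47) and XTH32 (2.08). Each value is the log2 response of GR-REV less that of KAN1-GR, with adjusted p in limma between 2.08e-07 and 0.0413. Of these, the differences of XTH28 at 30 min and of EXPA15 and XTH23 at 60 min were lost when single arrays were left out, as listed in the results. After quantile normalisation EXPA10, XTH27 and XTH28 at 30 min and XTH23 at 60 min did not pass. In wild type the 30 min change of EXPA4 was -1.05 on day 1 less day 2 (adjusted p = 0.0383), and it was lost without 9 of the 12 arrays left out singly.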

How the results depend on the processing

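Of 100 calls of members over all 16 comparisons, 49 held in every fit without 1 array, 58 in every other alternative and 35 in all. Of 1656 values of these calls under an alternative, 1346 kept their direction and passed, 308 kept their direction and did not pass, and 2 turned. Those 2 were the GR-REV responses of XTH18 and XTH23 at 60 min, which were 0.051 and 0.45 against wild type of the same time alone, a comparison that leaves out the 0 min arrays. Leaving out 1 array at a time, the number of members that passed ranged over 10 to 14 for GR-REV at 0 min (14 reported), 7 to 16 for KAN1-GR at 0 min (17 reported), 0 to 2 for the GR-REV response at 30 min (2 reported), 6 to 9 for the GR-REV response at 60 min (9 reported), 4 to 9 for the GR-REV response at 120 min (7 reported), 1 to 3 for the KAN1-GR response at 30 min (2 reported), 4 to 7 for the KAN1-GR response at 60 min (7 reported), 2 to 4 for the wild-type change at 30 min (4 reported). It ranged over 1 to 3 for the wild-type change at 60 min (2 reported), 0 to 3 for the wild-type change at 120 min (1 reported), 14 to 21 for wild type between days (23 reported), 0 to 5 for the wild-type day difference at 30 min (1 reported), 0 to 3 for the wild-type day difference at 60 min (0 reported), 2 to 4 for the difference between lines at 30 min (3 reported), 4 to 9 for the difference between lines at 60 min (6 reported) and 1 to 2 for the GR-REV response at 120 against 30 min (2 reported). In what follows the share of all tested probe sets that passed under the same setting stands in parentheses. After quantile normalisation the count was 0 for the GR-REV response at 30 min (0.378%), 4 for the GR-REV response at 60 min (1.77%), 2 for the GR-REV response at 120 min (1.44%), 3 for the wild-type change at 120 min (9.8%), 8 for the wild-type day difference at 30 min (12.8%), 8 for the wild-type day difference at 60 min (11.2%), 0 for the difference between lines at 30 min (2.03%) and 1 for the GR-REV response at 120 against 30 min (0.366%). With all probe sets tested the count was 1 for the GR-REV response at 30 min (0.914%), 2 for the wild-type change at 30 min (2.56%), 0 for the wild-type day difference at 30 min (2.37%) and 1 for the GR-REV response at 120 against 30 min (0.923%). Against wild type of the same time alone the count was 11 for the GR-REV response at 30 min (9.05%), 14 for the GR-REV response at 60 min (12.8%), 14 for the GR-REV response at 120 min (15.4%), 19 for the KAN1-GR response at 30 min (14%) and 17 for the KAN1-GR response at 60 min (18%). Against the line at 0 min alone the count was 12 for the GR-REV response at 30 min (17%), 14 for the GR-REV response at 60 min (18.1%), 16 for the GR-REV response at 120 min (12%) and 9 for the KAN1-GR response at 30 min (6.41%). With array weights the count was 14 for the KAN1-GR response at 30 min (13.7%), 8 for the wild-type change at 30 min (19.9%), 0 for the wild-type change at 120 min (4.15%), 16 for the wild-type day difference at 30 min (20.6%), 5 for the wild-type day difference at 60 min (6.6%) and 6 for the difference between lines at 30 min (6.6%). With day 2 wild type alone the count was 1 for the wild-type change at 30 min (0.601%) and 0 for the wild-type change at 60 min (0.477%). With day 1 wild type alone the count was 1 for the wild-type change at 60 min (4.14%). With arrays centred on their median the count was 2 for the wild-type change at 120 min (5.07%) and 1 for the wild-type day difference at 60 min (1.78%). The cause of these shifts was not tested. A single-reference comparison is a different contrast from the response or the mean of both days. When all probe sets were tested, more were adjusted for. Apart from counts with the replicate number as a block, given next, all other counts stayed within 1.5 times the reported one. With the replicate number as a block, 1 member passed in GR-REV at 30 min (1.3%) and 2 in the wild-type day difference at 30 min (3.17%). This block ended the calls of XTH5 in GR-REV at 0 min, XTH27 in its response at 30 min and XTH9 at 120 min. It also ended those of XTH30 in the KAN1-GR response at 60 min, XTH26 in wild type at 30 min and XTH19 between the days. Same-numbered wild-type and GR-REV arrays of a time on day 1 did not deviate together (1 of 12 correlations over 0.1). Another probe set could not be tried, as each member has 1. Centring on 6 wild-type arrays removes the signal level, so how far a gene lies above background cannot be judged here.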
